A study of Homo sapiens with 10 samples.

Results

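DNA methylation and heterochromatin keep genes and repeats silent, and 9 genes of this machinery were followed by symbol in the single-cell count tables: DNMT1, DNMT3A, DNMT3B, UHRF1, SETDB1, TRIM28, EZH2, SUV39H1 and CBX5. Of the 9, 8 matched a row among the 32738 genes of the tables, and UHRF1 is not analysed here. The cells are HCT-116, an established human colon cancer line, and no allele or transgene is named for any library. The untreated group has 2 libraries of cells that received no drug, and the DOX group has 2 libraries of cells given 200 nM doxorubicin (DOX, an anthracycline that damages DNA) for 24 h and then left for 6 d without it. Neither the labels nor the methods say whether the 2 libraries of a group came from separate cultures, so p-values measure the spread between these libraries, which may be technical. Each droplet carries a barcode and each captured mRNA a unique molecular identifier (UMI), so the values are counts of molecules per gene and barcode. The comparison asked how far the silencing genes differed between DOX-surviving and untreated cells, in barcodes with at least 20000 UMIs and under 8% of UMIs from mitochondrial genes.

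Methylated cytosines in CpG sites are set by DNMT3A and DNMT3B and copied onto the new DNA strand after replication by DNMT1, which UHRF1 brings to sites that carry the mark on the old strand only. SUV39H1 and SETDB1 methylate lysine 9 of histone H3, TRIM28 (also called KAP1) brings SETDB1 to sites bound by zinc finger proteins, and CBX5 (HP1 alpha) reads the mark. EZH2 is the catalytic subunit of Polycomb repressive complex 2 (PRC2), which methylates lysine 27 of the same histone. These marks are known to keep endogenous retroviruses and germline genes silent in somatic and cancer cells, and loss of DNA methylation is known to let double-stranded RNA from repeats switch on interferon-stimulated genes.

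The start sites of DNMT1 and EZH2 are shown because their windows hold the letters of a factor known for switching on genes of the cell cycle, and DNMT3B, whose window holds none, stands beside them. Each line runs 5′ to 3′ on the strand of the gene from 60 bases before the annotated start, and capitals mark letters that E2F factors are known to recognise (TTTCCCGC, TTTCGCGC, TTTGCCGC or TTTGGCGC, searched on both strands).
DNMT1, chr19:10194948-10195013, minus strand: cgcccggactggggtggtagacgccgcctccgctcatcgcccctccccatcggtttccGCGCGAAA
EZH2, chr7:148884283-148884351, minus strand: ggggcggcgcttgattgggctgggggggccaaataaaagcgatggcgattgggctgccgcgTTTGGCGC
DNMT3B, chr20:32779792-32779851, plus strand: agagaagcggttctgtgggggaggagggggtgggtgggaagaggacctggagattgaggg
The sequences are RefSeq promoters on GRCh38.p14, a later build than the hg19 of the counts. Over windows from 250 bases before to 50 after the start, the E2F letters were in 3.31% of 35116 windows of all genes. Counted by gene, 3.99% of 27305 genes had a window with them. Among the followed genes the letters were in the windows of DNMT1, EZH2 and UHRF1 and not in those of DNMT3A, DNMT3B, SETDB1, SUV39H1 or CBX5. In DNMT1 the match spans the start itself, and in EZH2 it follows the start of 1 of 2 annotated windows. The letters of the cell cycle homology region (TTTGAA or TTCGAA) were present in 16.4% of all windows and in windows of 19.5% of all genes. They were found after 1 start of DNMT3A and in no other window searched. TRIM28 was not searched.

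After the filters 3572 and 2137 barcodes remained in the untreated libraries and 1307 and 1080 in the DOX libraries. Of barcodes with at least 20000 UMIs, the mitochondrial limit left out 579 of 1886 and 651 of 1731 in the DOX libraries. In the untreated libraries it left out 395 of 3967 and 173 of 2310. The median barcode of a library held 72676 to 84830 UMIs and 8690 to 9178 genes. Pairs of libraries shared 5 to 24 barcode sequences. The epithelial keratins and EPCAM were abundant in every library, although CDX1 had at most 3 UMIs, while COL1A2 had none and the 13 measured markers of other cell types summed to 3.26 and 3.52 UMIs per 1000000 UMIs (CPM) in untreated and 6.41 and 7.03 CPM in DOX libraries. Nuclear retained RNA (MALAT1, NEAT1 and KCNQ1OT1) summed to 5048 and 5309 CPM in untreated and 9657 and 9397 CPM in DOX libraries, and 4 of the 6 tested markers of other cell types rose. The part of either list in the results was not tested. Genes were tested with edgeR's quasi-likelihood test on counts summed per library, with Benjamini-Hochberg adjustment over 21563 genes, of which 54.6% passed adjusted p = 0.05. Scaling by trimmed means (TMM) set the median log2 fold change of all genes at 0.04, against 0.21 for plain shares of all UMIs, and the calls changed from 6077 higher and 5695 lower to 8472 higher and 3259 lower. Fold changes below are TMM-scaled, while CPM are plain shares.

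Most of the silencing genes fell after DOX and 1 rose, so that 7 of 8 were called lower, against 26.4% of all genes tested, and 1 of 8 higher, against 28.2%. The median log2 fold change of the 8 was -0.59, against 0.04 over all genes tested. The falls of DNMT1, TRIM28, EZH2 and SUV39H1 were between 1.65-fold and 1.74-fold, those of DNMT3B, CBX5 and SETDB1 were smaller, and DNMT3A had the only rise. These sizes changed with the mitochondrial limit, as given in the closing part. With plain shares 5 of the silencing genes were lower and 1 higher, as SETDB1 and CBX5 no longer passed. Over all 21563 genes plain shares gave 3259 lower and 8472 higher. In summed counts, fewer cells with a transcript and less transcript per cell cannot be told apart. Counts per barcode follow below, but a lower mean count by itself also lowers the share of barcodes with a UMI.

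Among the DNA methyltransferases, DNMT1 was the one that fell most. DNMT1 (ENSG00000130816, chr19:10244018-10341962 on GRCh37, minus strand) had 202 and 221 CPM in untreated and 139 and 146 CPM in DOX libraries. Both DOX libraries lay below both untreated ones, with a log2 fold change of -0.74 ± 0.06 (SE, n = 2 and 2 libraries, edgeR adjusted p = 3.54e-05). DNMT3B (ENSG00000088305, chr20:31350191-31397165, plus strand), an enzyme that sets new methylation, had 18.8 and 19.4 CPM in untreated and 15.0 and 16.3 CPM in DOX libraries. The groups did not overlap, and the log2 fold change was -0.45 ± 0.06 (SE, edgeR adjusted p = 4.12e-04). DNMT3A (ENSG00000119772, chr2:25450724-25565459, minus strand), the partner enzyme for new methylation, had 10.7 and 12.6 CPM in untreated and 14.6 and 15.4 CPM in DOX libraries. It was the member with higher levels in both DOX libraries than in both untreated ones, with a log2 fold change of 0.21 ± 0.07 (SE, edgeR adjusted p = 0.0303). This call for DNMT3A was lost without untreated replicate 1 (log2 0.13, edgeR adjusted p = 0.176), without DOX replicate 1 (0.22, adjusted p = 0.0755), without DOX replicate 2 (0.17, adjusted p = 0.173) and with DESeq2 (0.14, adjusted p = 0.271).

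Genes of histone H3 lysine 9 methylation fell to different extents. TRIM28 (ENSG00000130726, chr19:59055431-59062089, plus strand), the corepressor that recruits SETDB1, had 307 and 325 CPM in untreated and 211 and 200 CPM in DOX libraries. The groups stood far apart, and the log2 fold change was -0.79 ± 0.07 (SE, edgeR adjusted p = 3.68e-05). SETDB1 (ENSG00000143379, chr1:150898739-150937220, plus strand), the methyltransferase itself, had 27.03 and 30.0 CPM in untreated and 27.4 and 28.4 CPM in DOX libraries. These plain shares overlap between the groups. After TMM scaling the levels were 29.6 and 30.7 against 25.97 and 26.7, with a log2 fold change of -0.20 ± 0.06 (SE, edgeR adjusted p = 0.0177). The fall of SETDB1 rests on that scaling: with plain shares it was -0.03 (edgeR adjusted p = 0.771), and it also missed the threshold without DOX replicate 1 (adjusted p = 0.123) and without DOX replicate 2 (adjusted p = 0.0711). Whether TRIM28 and SETDB1 changed by different amounts was not tested.

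SUV39H1 (ENSG00000101945, chrX:48553945-48567407, plus strand), a methyltransferase of constitutive heterochromatin, had few molecules, with 5.36 and 6.13 CPM in untreated and 3.32 and 4.06 CPM in DOX libraries. In counts these were 1563, 1220, 345 and 416 UMIs. Both DOX libraries were below both untreated ones, and the log2 fold change was -0.80 ± 0.10 (SE, edgeR adjusted p = 2.5e-04). CBX5 (ENSG00000094916, chr12:54624726-54673917, minus strand), the reader of the mark, had 75.6 and 84.1 CPM in untreated and 71.8 and 73.7 CPM in DOX libraries. Here the plain shares of the groups lay next to each other without overlap. The log2 fold change of CBX5 was -0.30 ± 0.06 (SE, edgeR adjusted p = 0.00237), and with plain shares it was -0.13 and did not pass (adjusted p = 0.145).

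EZH2 (ENSG00000106462, chr7:148504349-148581413, minus strand), the PRC2 enzyme, had 120 and 132 CPM in untreated and 82.4 and 89.5 CPM in DOX libraries. The groups did not overlap, and the log2 fold change was -0.72 ± 0.06 (SE, edgeR adjusted p = 4.12e-05). Under every alternative listed in the closing part, DNMT1, DNMT3B, TRIM28, EZH2 and SUV39H1 remained lower in DOX libraries at adjusted p under 0.05.

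**Figure D1:**
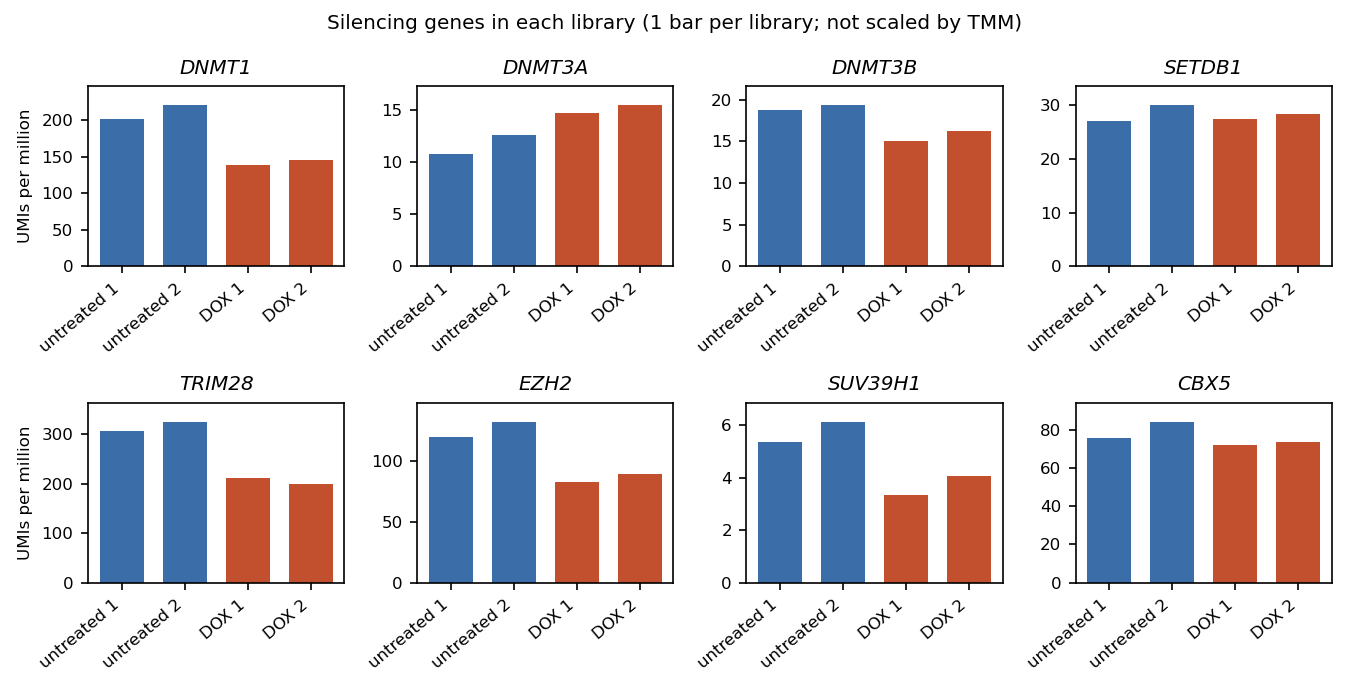
UMIs per 1000000 UMIs of each silencing gene (vertical axis, from 0, not scaled by TMM) in the untreated (blue) and DOX (orange) libraries, 1 bar per library. Both DOX bars stand below both untreated bars for DNMT1, DNMT3B, TRIM28, EZH2, SUV39H1 and CBX5, above them for DNMT3A, and among them for SETDB1.

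Counts per barcode describe the falls over cells, but the share of barcodes with a UMI that a lower mean alone would give was not computed. DNMT1 had a median of 15 and 19 UMIs per barcode in untreated and 10 and 12 in DOX libraries, and 99.6% and 99.8% of untreated and 96.7% and 97.4% of DOX barcodes had at least 1. When each barcode was thinned to 20000 UMIs, 97.1% and 97.4% of untreated and 84.0% (95% exact binomial interval 81.9 to 86.0%) and 84.7% (82.4 to 86.8%) of DOX barcodes still had a DNMT1 UMI. Intervals here cover counting error only. For EZH2, 87.7% and 89.1% of thinned untreated and 67.3% (64.7 to 69.9%) and 72.5% (69.7 to 75.2%) of thinned DOX barcodes held a UMI. Its thinned mean was 2.46 and 2.63 UMIs per barcode in untreated and 1.78 and 1.89 in DOX libraries. TRIM28 was found almost everywhere, in 99.5% and 99.7% of thinned untreated and 96.2% and 94.8% of thinned DOX barcodes, and its lower level showed in medians of 22 and 27 against 16 and 18 UMIs per barcode before thinning. For CBX5 the thinned shares were 75.6% and 77.8% in untreated and 67.1% and 71.9% in DOX libraries.

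The sparser genes gave low shares at the common depth. SUV39H1 was seen in 9.80% and 12.8% of thinned untreated and 6.27% and 7.13% of thinned DOX barcodes. DNMT3B was seen in 28.8% and 31.3% against 23.0% and 25.1%, and DNMT3A in 18.7% and 20.8% against 22.6% and 22.2%. SETDB1 shares of 41.0% and 43.4% against 40.9% and 42.4% overlapped. The cultures hold a single cell line, so no cell type that lacks these genes gives a background share. Counts spread more widely between DOX than between untreated barcodes for some genes: the variance divided by the mean was 1.74 and 1.82 for DNMT3A in untreated and 2.65 and 3.16 in DOX libraries. For EZH2 the same ratio was 4.02 and 4.56 against 5.77 and 9.37, and the highest DOX barcode had 150 EZH2 UMIs against 70 in untreated cells. TRIM28 went the other way, with 8.51 and 7.89 in untreated and 5.34 and 6.03 in DOX libraries. The ratio was taken before thinning and depends on the mean count and on the spread of UMI totals. The mean of TRIM28 was 25.1 and 30.3 UMIs per barcode in untreated and 16.8 and 19.0 in DOX libraries, so its lower ratio does not show a narrower spread.

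DOX libraries held fewer transcripts of DNA synthesis and division, and several silencing genes are known to be made mostly in cycling cells. All 37 measured S phase genes (median log2 fold change -0.765) and all 53 G2/M genes (-0.82) fell. MKI67, a marker of cycling cells, had 252 and 293 CPM in untreated and 175 and 186 CPM in DOX libraries. CDKN1A, which encodes the cell cycle inhibitor p21, had 29.0 and 29.2 against 281 and 240 CPM. Barcodes were therefore put into 3 classes by the share of their UMIs in the S phase and G2/M lists, which hold none of the followed genes, with limits at the tertiles of untreated barcodes (1.03% and 1.18%). The low class held 34.4% and 32.9% of untreated but 72.6% and 74.2% of DOX barcodes. The classes are ranges of a score and not cell types, as 69.8% and 68.4% of untreated and 33.2% and 32.1% of DOX barcodes lay within 10% of a limit. Scores were matched in the middle class (medians 1.083 to 1.099%) and the high class (1.29 to 1.31%), but in the low class the DOX medians of 0.61 and 0.71% lay below the untreated medians of 0.94 and 0.94%.

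Within the low class 7 of 8 silencing genes were lower in DOX libraries and 1 higher, where 52.1% of all genes tested passed (25.8% lower, 26.3% higher). In the matched classes fewer passed: 1 of 8 was lower and 0 higher in the middle class (19.1% of all genes passed, 10.0% lower and 9.06% higher), and 3 of 8 were lower and 0 higher in the high class (22.2%, 11.3% and 10.9%). TRIM28 was the gene that stayed lower in all 3 classes. It had 307 and 328 CPM in low, 317 and 335 in middle and 298 and 312 in high untreated barcodes, against 201 and 191, 246 and 227, and 231 and 224 CPM in the DOX classes. The log2 fold changes of TRIM28 were -0.87 ± 0.07 in the low, -0.54 ± 0.09 in the middle and -0.48 ± 0.08 in the high class (SE, edgeR adjusted p = 2.68e-05, 2.54e-04 and 0.00104). No DOX library reached an untreated library in any class.

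DNMT1 and EZH2 passed in the high class but not in the middle class, and their difference from TRIM28 was not tested. DNMT1 had 191 and 209 CPM in low, 210 and 228 in middle and 204 and 223 in high untreated barcodes, against 117 and 129, 207 and 201, and 189 and 187 CPM in DOX barcodes. The DOX levels came close to the untreated ones from the middle class on, with log2 fold changes of -0.88 ± 0.07 (low, edgeR adjusted p = 2.79e-05), -0.19 ± 0.08 (middle, adjusted p = 0.124) and -0.25 ± 0.08 (high, adjusted p = 0.0368). EZH2 had 110 and 119 CPM in low untreated against 69.0 and 77.8 CPM in low DOX barcodes, and 127 and 142 against 128 and 131 CPM in the middle class. Its log2 fold changes were -0.82 ± 0.07, -0.13 ± 0.08 and -0.25 ± 0.07 in the low, middle and high class (SE, edgeR adjusted p = 3.82e-05, 0.278 and 0.03). In the middle class DNMT1 passed without untreated replicate 1 (-0.20, edgeR adjusted p = 0.0256). The calls for DNMT1 and EZH2 in the high class were lost without untreated replicate 2 (adjusted p = 0.101 and 0.0818), without DOX replicate 1 (0.132 and 0.2), without DOX replicate 2 (0.338 and 0.183) and with plain shares (0.0957 and 0.109).

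The other genes passed in the low class and in neither matched class, and the difference between the high and the low class was tested separately. In the low class the log2 fold changes were -0.34 ± 0.08 for DNMT3B, -0.26 ± 0.07 for SETDB1, -0.89 ± 0.13 for SUV39H1, -0.37 ± 0.06 for CBX5 and 0.38 ± 0.07 for DNMT3A (SE, edgeR adjusted p from 3.99e-04 to 0.0113). SETDB1 missed the threshold there without DOX replicate 1 (adjusted p = 0.0859) and when thinned (-0.18, adjusted p = 0.108), and like DNMT3B with plain shares (adjusted p = 0.453 and 0.152). The count of silencing genes lower in the low class was 6 when thinned, 6 without DOX replicate 1 and 5 with plain shares. In the middle and high class the values were 0.04 ± 0.12 and 0.21 ± 0.12 for DNMT3A and 0.07 ± 0.11 and -0.05 ± 0.09 for DNMT3B. They were 0.10 ± 0.09 and -0.05 ± 0.08 for SETDB1 and -0.06 ± 0.16 and -0.131 ± 0.135 for SUV39H1. The matched DOX classes held 133 to 186 barcodes, against 949 and 801 in the low class. Missing the threshold there does not show that a difference is absent. CBX5 had 61.6 and 63.4 CPM in low DOX barcodes against 68.8 and 74.7 in untreated ones, but 101 and 106 against 82.4 and 92.9 CPM in the high class. The CBX5 difference was 0.23 ± 0.08 in the middle and 0.18 ± 0.08 in the high class and missed the threshold in both (edgeR adjusted p = 0.0541 and 0.106). It passed as higher in the middle class without untreated replicate 1 (adjusted p = 0.0486), without untreated replicate 2 (0.00525) and with plain shares (0.00855), and in the high class without untreated replicate 2 (0.0313), with plain shares (0.0411) and with the replicate number as a block (0.0158). SUV39H1 levels were higher in the high than in the low class of every library, going from 4.40 and 4.82 to 6.43 and 6.90 CPM in untreated and from 2.54 and 3.07 to 5.58 and 7.12 CPM in DOX libraries. DNMT3B did the same, from 14.2 and 15.6 to 24.1 and 23.6 CPM in untreated and from 12.4 and 14.1 to 22.1 and 26.2 CPM in DOX libraries. DNMT3A had 15.0 and 15.9 CPM in low and 12.3 and 15.7 CPM in high DOX barcodes, and these overlap.

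A test of the difference itself asked whether the DOX effect was unequal in the high and the low class. It passed in the positive direction for 6 of 8 silencing genes and in the negative direction for 0, while 25.3% of 20688 genes tested passed (17.9% positive and 7.39% negative), so their level in DOX relative to untreated cells was higher in the high class. The differences of log2 fold changes were 0.64 ± 0.06 for DNMT1, 0.58 ± 0.05 for EZH2, 0.56 ± 0.05 for CBX5 and 0.40 ± 0.04 for TRIM28 (SE, edgeR adjusted p from 3.6e-07 to 6.41e-06). SUV39H1 gave 0.76 ± 0.145 (SE, edgeR adjusted p = 8.88e-04) and SETDB1 0.21 ± 0.07 (adjusted p = 0.0386). The SETDB1 difference missed the threshold in 8 of 11 alternatives: without untreated replicate 1 (adjusted p = 0.388), without untreated replicate 2 (0.367), without DOX replicate 1 (0.236), with plain shares (0.09 on the log2 scale, 0.407), with DESeq2 (0.183), with classes from the G2/M list (0.0988), with barcodes thinned to 20000 UMIs (0.298) and with the replicate number as a block (0.0749). Over the alternatives the count of silencing genes that passed ran from 5 to 7. DNMT3B at 0.30 ± 0.11 (adjusted p = 0.0659) and DNMT3A at -0.16 ± 0.12 (adjusted p = 0.379) did not pass. DNMT3B passed without the filter on low counts (adjusted p = 0.018), with 2 classes (0.39, adjusted p = 0.00228), when thinned (0.50, adjusted p = 0.0227) and with the block (0.0321). As the low class holds lower scores in DOX than in untreated barcodes, the class contrast and the score within the class cannot be told apart there.

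**Figure D2:**
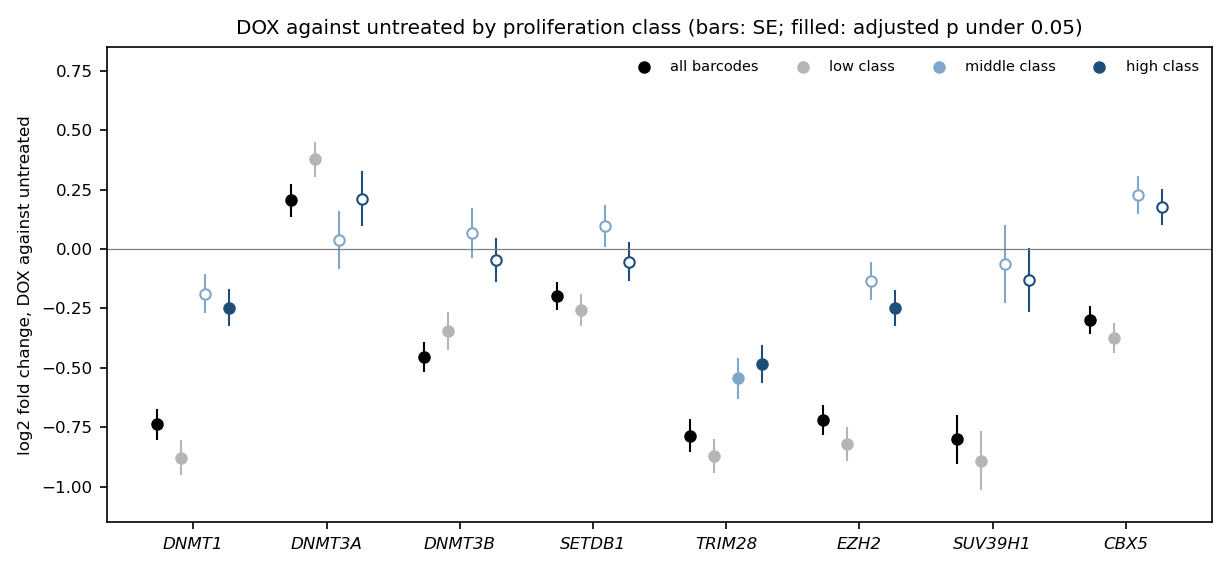
Log2 fold change of DOX against untreated (vertical axis) for each silencing gene over all barcodes (black) and in the low (grey), middle (light blue) and high (dark blue) proliferation class, with bars for 1 SE and filled points for edgeR adjusted p under 0.05. TRIM28 has filled points below 0 in all classes, while the middle and high points of DNMT3B, SETDB1 and SUV39H1 lie near 0.

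**Figure D3:**
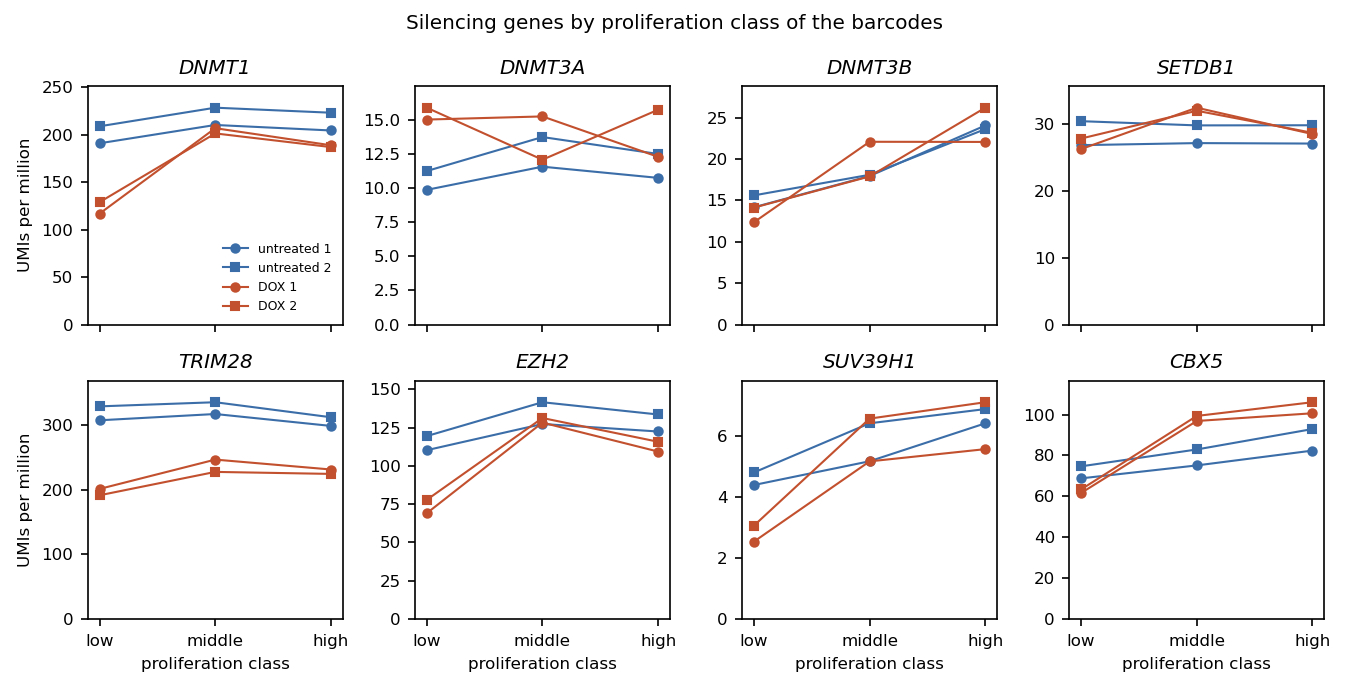
UMIs per 1000000 UMIs of each silencing gene (vertical axis, from 0) in the low, middle and high proliferation class of each library (blue untreated, orange DOX; circles replicate 1, squares replicate 2). The DOX lines of DNMT1 and EZH2 rise from the low to the middle class towards the untreated lines, and those of TRIM28 stay below them.

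Over single DOX barcodes 6 of 8 silencing genes had correlations of larger size with the proliferation score than with the interferon genes, and SETDB1 and DNMT3A of smaller size. Pearson correlations of DNMT1 (natural log of 1 plus 10000 times its share) with the score were 0.716 and 0.698 in DOX and 0.214 and 0.260 in untreated libraries. EZH2 gave 0.589 and 0.545 in DOX and 0.201 and 0.216 in untreated libraries, and CBX5 gave 0.470 and 0.555 against 0.197 and 0.242. TRIM28, with 0.470 and 0.432 in DOX libraries, had only 0.0721 and 0.0155 in untreated ones. SETDB1 and DNMT3A stood apart, as their correlations lay between -0.116 and 0.0242 in the 4 libraries. These are descriptions over 1080 to 3572 barcodes that share a library and the total used to scale them.

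The interferon genes IFI6, IFI27 and ISG15 rose strongly after DOX, and their sum per barcode was set against each silencing gene. IFI6 had 8.21 and 8.07 CPM in untreated and 455 and 488 CPM in DOX libraries. IFI27 had 1.70 and 1.54 against 130 and 129 CPM, and ISG15, an ubiquitin-like modifier, had 131 and 122 against 686 and 690 CPM. The sum of the 3 had a median of 71 and 83.5 UMIs per DOX barcode and 9 and 10 per untreated barcode. Correlations of the 8 silencing genes with this sum were weak, between -0.201 and 0.168 over DOX barcodes and between -0.137 and 0.0857 over untreated ones.

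Direction varied from gene to gene in that weak range. DNMT1 gave 0.0744 and 0.0774 in the DOX libraries and TRIM28 0.132 and 0.168, both above 0. With the mitochondrial share there, DNMT1 had correlations of 0.169 and 0.167, TRIM28 0.151 and 0.257, and the interferon sum 0.0391 and 0.121. The part of the mitochondrial share was not tested. With the interferon sum DNMT3A gave -0.139 and -0.201, SETDB1 -0.142 and -0.113, EZH2 -0.0734 and -0.135, and DNMT3B -0.0997 and -0.0741. When thinned, DNMT3B gave -0.0108 and -0.0312, DNMT3A -0.0719 and -0.102, SETDB1 -0.114 and -0.103, and EZH2 -0.0549 and -0.0874. Thinned values were 0.0787 and 0.0809 for DNMT1 and 0.134 and 0.134 for TRIM28. SUV39H1 and CBX5 had opposite signs in the 2 DOX libraries. In the untreated libraries EZH2 gave -0.121 and -0.137, and DNMT1 gave -0.0637 and -0.0959, below 0. The score of proliferation itself had correlations of 0.117 and 0.112 with the interferon sum in DOX and -0.0766 and -0.0401 in untreated libraries. In the low class alone, DNMT1 gave 0.0627 and 0.0848, DNMT3A -0.157 and -0.220 and TRIM28 0.159 and 0.172 in the DOX libraries. Not all of these signs were kept in the smaller classes: DNMT1 gave -0.021 and -0.0498 in the middle and 0.0668 and -0.0581 in the high class, DNMT3A -0.129 and -0.126 in the middle and 0.0285 and -0.118 in the high class, and TRIM28 0.0444 and 0.213 in the middle and -0.0861 and 0.0298 in the high class, over 133 to 186 barcodes.

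DOX barcodes were also ranked by the interferon share and cut into 4 groups of equal size. From the lowest to the highest group the interferon sum went from 279 to 3008 CPM in DOX replicate 1 and from 309 to 2902 CPM in DOX replicate 2. DNMT1 had 123, 143, 152 and 137 CPM over these groups in DOX replicate 1 and 126, 159, 152 and 146 CPM in DOX replicate 2, with the lowest level in the lowest group. DNMT3A went from 17.2 to 11.8 and from 22.2 to 11.8 CPM between the outer groups. SETDB1 went from 32.0 to 25.6 and from 32.7 to 26.3 CPM. EZH2 had 86.3 and 76.6 CPM in the outer groups of DOX replicate 1 and 94.2 and 78.2 CPM in those of DOX replicate 2. TRIM28 went from 192 to 215 and from 177 to 201 CPM. Untreated barcodes were ranked alike. There EZH2 went from 130.9 to 109.8 and from 143.3 to 123.5 CPM, and DNMT3A from 11.8 to 9.39 and from 13.5 to 11.7 CPM. SETDB1 went from 28.9 to 25.7 and from 32.1 to 28.1 CPM, so falls of EZH2, DNMT3A and SETDB1 were also seen without DOX. DNMT1 went from 210 to 193.5 and from 230 to 214 CPM in untreated libraries. The median proliferation score was 0.711% in the lowest group of both DOX libraries and 0.855 and 0.903% in the highest, and its part in these levels was not tested.

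**Figure D4:**
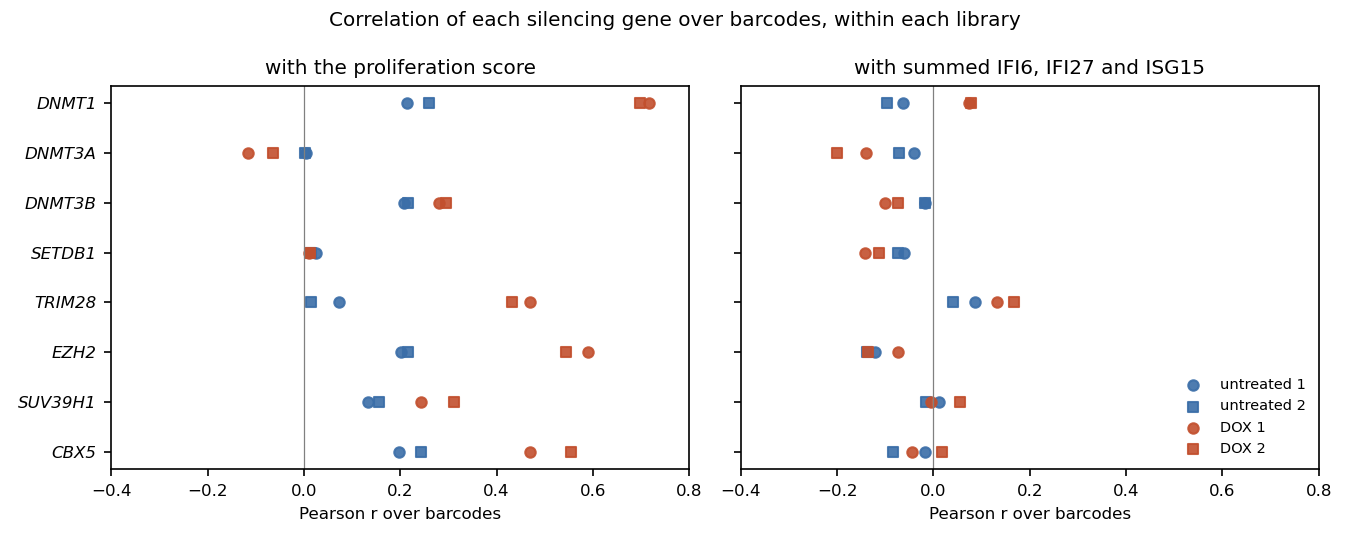
Pearson r over barcodes within each library (horizontal axis) of each silencing gene with the proliferation score (left) and with summed IFI6, IFI27 and ISG15 (right), blue for untreated and orange for DOX libraries, circles for replicate 1 and squares for replicate 2. DNMT1 reaches 0.716 with the score in DOX libraries, and all values with the interferon sum lie between -0.201 and 0.168.

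Some pairs of silencing genes moved together over DOX barcodes, while others lay near 0. DNMT1 and EZH2 had correlations of 0.569 and 0.532 in DOX and 0.240 and 0.316 in untreated libraries. DNMT1 with TRIM28 gave 0.440 and 0.458 in DOX but 0.0926 and 0.0781 in untreated libraries, and DNMT1 with CBX5 0.399 and 0.473 against 0.119 and 0.104. These genes each had correlations of 0.432 to 0.716 with the proliferation score in DOX libraries, and its part in the pairs was not tested. In DOX libraries DNMT1 with DNMT3A gave -0.0697 and -0.0589, DNMT3B with TRIM28 0.038 and 0.0553, and DNMT3A with CBX5 0.0185 and -0.0075. DNMT3A went against TRIM28 in each library, with -0.0779 and -0.111 in untreated and -0.165 and -0.176 in DOX libraries. TRIM28 and SETDB1, which act in one complex, had correlations of -0.0939 and -0.0791 in untreated and -0.100 and -0.0841 in DOX libraries.

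The genes most alike each member were sought among 9914 genes with at least 0.5 UMIs per barcode in all 4 libraries, by the mean of the 4 correlations over barcodes. For DNMT1 these were ATAD2 (mean r 0.540), HELLS (0.523), a chromatin remodeler needed for DNA methylation, and SUPT16H (0.503), a histone chaperone. EZH2 shared ATAD2 (0.558) and HELLS (0.536) with DNMT1 and had FANCA (0.537) between them. TRIM28 was most like H2AFZ (0.471), which encodes a histone variant, HSPE1 (0.469) and TUBA1B (0.458), while CBX5 was most like MKI67 (0.375), TMPO (0.371) and NUCKS1 (0.356).

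The other members had lower mean correlations with their most alike genes, and also fewer UMIs per barcode. Mean counts ran from 0.264 to 0.571 for SUV39H1 and from 2.17 to 2.80 for SETDB1, against 5.70 to 7.83 for CBX5. Low counts lower a correlation, and their part here was not tested. SUV39H1 was most like TOP2A (0.183), NUSAP1 (0.182) and BIRC5 (0.182), which act in mitosis and DNA topology. DNMT3B was most like ARHGAP11B (0.335), CIT (0.296) and CDCA2 (0.292). ARHGAP11B is a partial copy of ARHGAP11A, so its reads are uncertain. SETDB1 had KANSL1 (0.316), ASH1L (0.302) and PTK2 (0.298), and DNMT3A had BIRC6 (0.334), USP34 (0.312) and AGAP1 (0.298). None of these 6 genes is a cell cycle marker of the lists.

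Shallower barcodes were plentiful in the DOX libraries, where 8000 barcodes each were kept by instruction. In DOX barcodes with under 2000 UMIs and the same mitochondrial limit, DNMT1 had 60.4 CPM (95% exact Poisson interval 54.5 to 66.8) and 50.0 CPM (44.2 to 56.2), against 139 and 146 CPM in those with at least 20000. Barcodes with 2000 to 20000 UMIs had 79.8 (70.3 to 90.2) and 98.8 (86.6 to 112) CPM. EZH2 went from 82.4 and 89.5 CPM in deep to 33.8 and 36.9 CPM in the shallowest DOX barcodes, SETDB1 from 27.4 and 28.4 to 8.52 and 8.33, and TRIM28 from 211 and 200 to 143 and 144. In untreated libraries only 140 and 71 barcodes had under 2000 UMIs, and DNMT1 had 179 (121 to 255) and 202 (118 to 323) CPM there, against 202 and 221 CPM in deep barcodes. The intervals cover counting error alone. Depth classes differ in what was captured, and whether the shallow barcodes hold whole cells was not tested. Only the silencing genes were counted by depth, so a shift shared with other genes cannot be told apart.

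The wider silencing machinery was described by lists of other genes with the same test. Counts with TMM scaling stand against 26.4% of all genes tested that were lower and 28.2% that were higher. Counts with plain shares stand against 3259 lower and 8472 higher of 21563 genes. Those with DESeq2 stand against 6037 lower and 4032 higher of 29214 genes. Of 13 tested partners and readers of DNA methylation 9 fell and 3 rose, and their log2 fold changes had a median of -0.39 (7 fell and 3 rose with plain shares). The 3 with the smallest adjusted p all fell: CDCA7 (-0.79 ± 0.06), the partner of HELLS, the deubiquitinase USP7 (-0.57 ± 0.06), which stabilises DNMT1 and UHRF1, and LIG1 (-0.52 ± 0.06), the DNA ligase of replication that recruits UHRF1 (SE, edgeR adjusted p from 1.22e-05 to 9.72e-05). Of 6 genes of DNA demethylation 2 rose and 2 fell, which is near the shares over all genes, and with plain shares 3 rose and 1 fell. GADD45A, a p53 target linked to demethylation, rose from 40.8 and 38.4 to 97.3 and 92.5 CPM (log2 1.09 ± 0.075, edgeR adjusted p = 1.13e-05), TDG, a glycosylase of that route, fell (-0.41 ± 0.06, adjusted p = 3.82e-04), and APOBEC3B, a cytidine deaminase, rose (0.49 ± 0.08, adjusted p = 0.00104).

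Among 17 other genes of H3K9 methylation 9 fell and none rose, with a median of -0.19. CBX1 (-0.70 ± 0.07) and CBX3 (-0.67 ± 0.07), which encode the other HP1 proteins, and SUV39H2 (-0.71 ± 0.07), the sister enzyme of SUV39H1, led these (SE, edgeR adjusted p from 7.69e-05 to 1.14e-04). With plain shares the count for this list was 5 lower and 3 higher. Of 10 other PRC2 subunits 7 fell and 2 rose, with a median of -0.42 (5 and 2 with plain shares, median -0.25), and the leading falls were PHF19 (-1.05 ± 0.06), an accessory subunit, and the core subunits EED (-0.74 ± 0.07) and SUZ12 (-0.57 ± 0.06) (SE, edgeR adjusted p from 4.12e-06 to 1.29e-04). PRC1, the complex that ubiquitinates histone H2A, had 9 of 18 subunits lower and 2 higher (median -0.18), led by BMI1 (-0.82 ± 0.06), PCGF6 (-0.54 ± 0.06) and CBX2 (-0.57 ± 0.07). With plain shares 5 PRC1 subunits were lower and 4 higher.

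Of 15 histone deacetylase and NuRD genes 11 fell and none rose (median -0.33), against 7 and 1 with plain shares (median -0.16), led by SAP30 (-0.66 ± 0.07), MTA2 (-0.49 ± 0.06) and HDAC3 (-0.53 ± 0.07). Chromatin assembly factors and histone chaperones had the lowest median of these lists at -0.70, as 8 of 9 fell, also with plain shares, led by SSRP1 (-0.73 ± 0.06), ASF1B (-0.73 ± 0.07) and NASP (-0.83 ± 0.07). Of 11 demethylases of repressive histone marks 6 rose and 3 fell, with a median of 0.22. With plain shares 7 rose and 1 fell, and with DESeq2 5 rose and 4 fell. KDM4B, an H3K9 demethylase, rose from 22.0 and 24.7 to 50.7 and 48.1 CPM (log2 0.92 ± 0.06), KDM7A by 0.87 ± 0.07, and KDM6B, an H3K27 demethylase, from 11.7 and 13.5 to 23.5 and 22.0 CPM (0.69 ± 0.07; SE, edgeR adjusted p from 9.97e-06 to 6.88e-05). H4K20 methylation had 1 of 4 genes lower, SETD8 (-0.55 ± 0.06), and 2 higher, SUV420H2 (0.36 ± 0.09) and L3MBTL1 (0.23 ± 0.07; edgeR adjusted p from 1.23e-04 to 0.0229), while plain shares gave 3 higher and DESeq2 gave 0 higher.

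Germline genes whose promoters are known to be methylated in somatic cells were called in both directions. Of the 34 listed, 15 passed the filter on low counts, 2 rose and 2 fell (5 and 2 with plain shares), and 10 to 14 of the 34 had no UMI in a library. The testis antigens MAGEA3 (-0.64 ± 0.09, edgeR adjusted p = 5.11e-04) and MAGEB2 (-0.41 ± 0.07, adjusted p = 0.00109) were already present in untreated cells and fell, from 71.5 and 63.3 to 45.7 and 51.6 CPM and from 109 and 105 to 91.2 and 88.5 CPM. MAGEA3 has near-identical copies, so its count is uncertain. MOV10L1, a helicase of the germline piRNA pathway, rose from 0.106 and 0.126 to 0.481 and 0.440 CPM (1.83 ± 0.27, adjusted p = 5.67e-04). In comparison, 36 of 38 interferon-stimulated genes rose with a median of 2.63, and 27 of 31 p53 targets with a median of 0.72. All 37 S phase genes fell with a median of -0.765, and all 53 G2/M genes with a median of -0.82. These medians lie below those of the followed genes and of every silencing list. The other silencing lists are not shown by proliferation class.

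**Figure D5:**
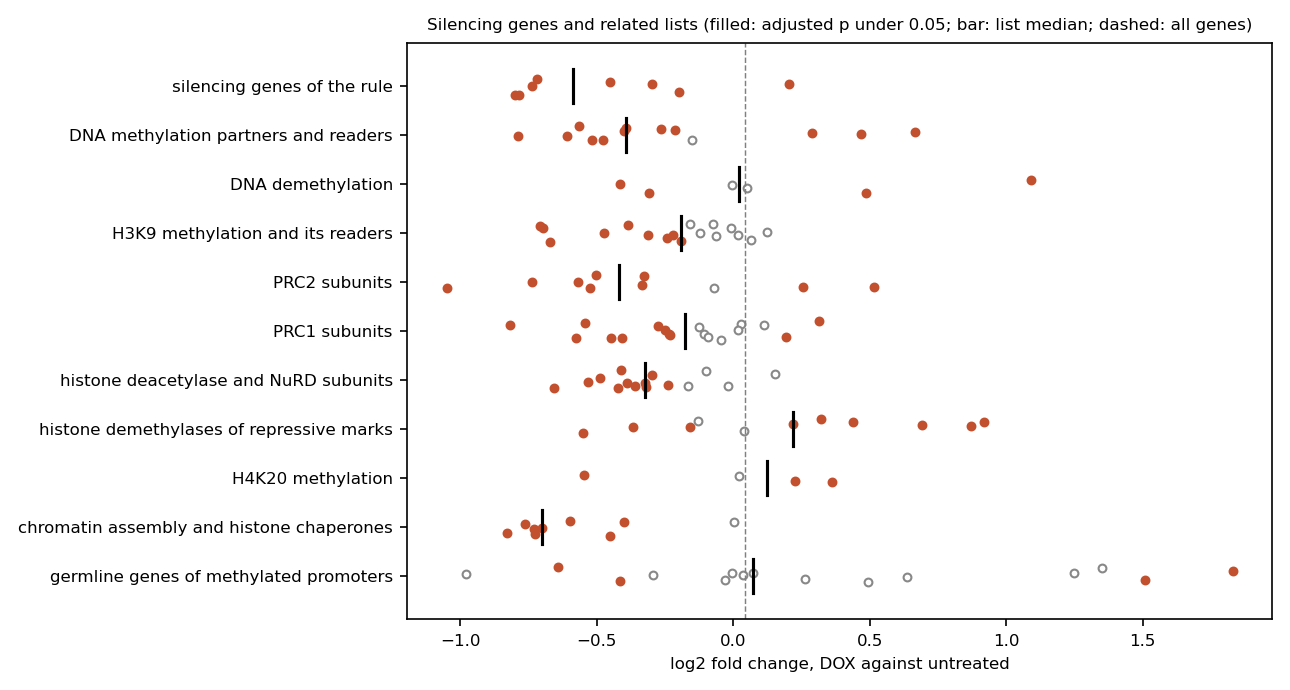
Log2 fold change of DOX against untreated (horizontal axis, TMM-scaled) of each tested gene of the silencing machinery by list, with filled points for edgeR adjusted p under 0.05, black bars for list medians and a dashed line at the median of all genes (0.04). The medians lie at -0.59 for the followed silencing genes, at -0.70 for chaperones and at 0.22 for demethylases of repressive marks.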

How the data were processed

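Single-cell RNA of HCT-116 cells was measured in 4 libraries, and 6 bulk samples are not analysed here. The deposited values are raw UMI counts per gene and barcode, which the authors made by aligning to hg19 with Cell Ranger (7.2.0 in the matrix headers, 7.0.0 in the submitters' processing notes), without normalization. Barcodes with at least 20000 UMIs and under 8% mitochondrial UMIs were kept, which gave 102333220 to 291488794 UMIs per library. Doublets were not called, and the 5% of barcodes with most UMIs were left out as an alternative.

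Counts were summed per library, or per library and proliferation class, and tested with edgeR 4.0.16 (R 4.3.3) by its quasi-likelihood test after filterByExpr and TMM, with p-values adjusted by Benjamini-Hochberg and a threshold of 0.05. Class limits were the tertiles of the score in each untreated library, averaged over both. The class test kept the library as a covariate. DESeq2 1.42.0 was an alternative. CPM are UMIs per 1000000 UMIs of the kept barcodes. Correlations used ln(1 + 10000 × share) and have no test. On simulated counts of 20189 genes for DOX against untreated, the test found 97% of the 1.5-fold changes, and 5.71% of what it called had not been changed. The test between classes found 65.7% of the 1.5-fold and 97% of the 2-fold differences among 19260 genes. Each simulation changed 67 genes by 1.5-fold, 67 by 2-fold and 66 by 4-fold, with a common dispersion for all genes. In the data 54.6% of genes passed for DOX against untreated, so these rates cannot be read as those of the results. TMM scaling with so many genes changed was not simulated. The untreated libraries differed by a chi-square of 43.2 per degree of freedom and the DOX libraries by 7.3. This value grows with the UMIs summed, which were more in the untreated libraries, so the groups cannot be compared by it.

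Named genes were the 9 silencing genes, IFI6, IFI27, ISG15, CDKN1A, MKI67, the 3 genes of each silencing list with the smallest adjusted p and the 3 genes most alike each of the measured ones; EPCAM, MALAT1, NEAT1 and KCNQ1OT1 were named as markers of their lists, and COL1A2 and CDX1 after their values were seen. The silencing genes and all lists were chosen with earlier results of these data known. Gene coordinates come from GENCODE v44 on GRCh37. Python 3.11.15 was used for the rest.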

Additional observations from a re-analysis of the deposited data

Results flagged for a closer look

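For 6 of the 8 silencing genes the DOX effect differed between barcodes of high and of low proliferation score, by edgeR's quasi-likelihood test of that difference with Benjamini-Hochberg adjustment. The DOX effect on the log2 scale was higher in the high than in the low class by 0.64 for DNMT1, by 0.21 for SETDB1, by 0.40 for TRIM28, by 0.58 for EZH2, by 0.76 for SUV39H1 and by 0.56 for CBX5. The SETDB1 difference missed the threshold in 8 of 11 alternatives, and the count of genes that passed ran from 5 to 7. The scores of the low class were not matched between DOX and untreated barcodes, and the part of this in the differences was not tested. For TRIM28 the DOX effect was -0.54 and -0.48 in the matched middle and high classes.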

How the results depend on the processing

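Across the alternatives DNMT1, DNMT3B, TRIM28, EZH2 and SUV39H1 stayed lower in DOX libraries past the threshold. Their falls were larger with a mitochondrial limit of 20%: DNMT1 -0.992, DNMT3B -0.617, TRIM28 -0.999, EZH2 -0.939 and SUV39H1 -1.13. At that limit CBX5 was -0.494, DNMT3A 0.356 and SETDB1 -0.184. With a limit of 5% DNMT1 was -0.864, DNMT3B -0.475, TRIM28 -0.863, EZH2 -0.773 and SUV39H1 -0.919. DNMT3A did not pass with DESeq2 (0.14), without the filter on low counts (0.16) or with a mitochondrial limit of 5% (0.23), so the count of silencing genes called higher was then 0, and leaving out 1 library gave 0.13 to 0.26 and a count of 0 to 1. SETDB1 did not pass with plain shares (-0.0303), with the upper limits of the study on genes and UMIs (-0.17) or with barcodes thinned to 20000 UMIs (-0.12), and without 1 library it ranged from -0.24 to -0.18. CBX5 did not pass with plain shares (-0.13). The cause was not tested. Over all genes DESeq2 called 4032 higher, and plain shares gave 3259 lower.

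In the class difference, the counts of all genes were 2098 higher and 2705 lower with plain shares, 1917 and 764 with thinned barcodes, where the difference for SUV39H1 no longer passed (0.67, adjusted p = 0.158), 884 lower with DESeq2, and 1241 to 3724 and 568 to 1522 without 1 library. The DNMT3A difference turned to 0.0012 with classes from the G2/M list alone. The silencing genes lower in the middle class numbered 1 to 2 without 1 library, and those in the high class 1 with plain shares, with G2/M classes and with thinning, and 1 to 3 without 1 library. Values near 0 changed sign: in the middle class DNMT3A was -0.0028 without the filter and -0.15 to 0.17 without 1 library, DNMT3B -0.22 when thinned and -0.10 to 0.19, SETDB1 -0.0398 with G2/M classes, and SUV39H1 0.0184 with plain shares and -0.26 to 0.10. In the high class DNMT3A was -0.0285 when thinned, DNMT3B 0.0174 with plain shares, 0.0116 with 2 classes, 0.12 when thinned and -0.15 to 0.0455 without 1 library, SETDB1 0.0087 with plain shares and 0.062 when thinned, and SUV39H1 -0.29 to 0.0081. The largest correlation with the interferon sum was 0.119 in size by Spearman and 0.134 when thinned.

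With the replicate block 7 silencing genes were lower and 1 higher, 6370 and 5941 genes were called, and DNMT1 was -0.74. In the class difference it brought DNMT3B past the threshold (0.31, adjusted p = 0.0321) and SETDB1 out of it (0.21, adjusted p = 0.0749), and in the high class CBX5 passed (0.18, adjusted p = 0.0158). The block changed no other call for these genes. Same-numbered libraries deviated together weakly (r = 0.211 over 5260 genes), and with 2 pairs the numbers do not establish a pairing. With 2 libraries a group, SUV39H1 rests on 345 to 1563 UMIs per library.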
